A study of Homo sapiens with 24 samples.

Results

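The transcripts of the E2F and retinoblastoma family were followed in LNCaP cells, a prostate cancer cell line that grows in response to androgen. The family was taken as the 10 genes E2F1 to E2F8, RB1 and RBL1, and a gene was tested when its platform symbol matched and 3 or more of the 24 arrays gave its probe a detection p under 0.01. The 10 genes had 12 probes, and 9 of the genes, each with 1 detected probe, were tested among 10345 genes with a detected probe. E2F8 was detected on 2 of the 24 arrays and was not tested, and the additional probes of E2F6 and RBL1 were detected on 0 arrays.

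E2F proteins are transcription factors that control the genes of S-phase entry. E2F1, E2F2 and E2F3 are usually grouped as activators, E2F4 and E2F5 as repressors that work with the pocket proteins, and E2F6, E2F7 and E2F8 as repressors that bind no pocket protein. The pocket proteins RB (RB1), p107 (RBL1) and p130 (RBL2) hold E2F target genes in check until kinases of the cyclin D and cyclin E complexes phosphorylate them.

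LNCaP cells were plated onto 1 of 4 treatments: the small molecule ST045849, an inhibitor of O-GlcNAc transferase (OGT), its vehicle, an siRNA that targets OGT (siOGT), or a scrambled control siRNA. OGT is the enzyme that places a single sugar, N-acetylglucosamine, on serines and threonines of proteins in the nucleus and cytosol. RNA was taken 12 or 24 hours after plating, which gave 8 groups of 3 arrays that the series describes as biological replicates. All cells were grown in medium with serum, the sources used here give no dose of ST045849, and all values come from 1 cell line.

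The median raw intensity of an array lay between 102 and 126, and 29.6% to 34.3% of its probes were detected. Luminal prostate markers (KLK3, KLK2, TMPRSS2, FOLH1, KRT8 and KRT18) were detected on 24 of 24 arrays, and the basal markers KRT5 and KRT14, the stromal markers COL1A1, COL1A2, COL3A1 and DCN and the blood marker PTPRC on 0; VIM, also listed as stromal, was detected on 24. OGT fell with siOGT, from 8.76, 8.95 and 8.99 on the log2 scale with the scrambled siRNA to 7.32, 7.55 and 6.71 at 12 hours, and from 8.96, 8.61 and 9.10 to 6.76, 7.82 and 6.60 at 24 hours. These were log2 changes of -1.70 ± 0.23 (SE; limma adjusted p = 0.0040) and -1.83 ± 0.23 (adjusted p = 0.000679). The arrays also fell into a pair of sets that cross the labelled times, read from a gap on the first principal component. Set A holds 12 hours replicate 3 and 24 hours replicates 1 and 3 of each treatment, and set B the others. The labels do not say what separates them. Each treatment is balanced against its own control over these sets, and a comparison of 24 with 12 hours mixes time with set. Bulk RNA cannot tell fewer cells in a cell cycle phase from less of a transcript per cell.

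The promoters of E2F1, E2F2, RBL1 and E2F7 are shown because the fallen transcripts E2F2, RBL1 and E2F7 differ in whether an E2F motif stands near the start, and E2F1 holds motifs without having passed the test. Each run is 300 bases, 250 before and 50 after a transcription start, from RefSeq on GRCh38.p14, written 5′ to 3′ on the gene's own strand, with capitals on matches to the motifs TTTCCCGC, TTTCGCGC, TTTGCCGC and TTTGGCGC on either strand.
E2F1 promoter, chr20:33686336-33686635, minus strand: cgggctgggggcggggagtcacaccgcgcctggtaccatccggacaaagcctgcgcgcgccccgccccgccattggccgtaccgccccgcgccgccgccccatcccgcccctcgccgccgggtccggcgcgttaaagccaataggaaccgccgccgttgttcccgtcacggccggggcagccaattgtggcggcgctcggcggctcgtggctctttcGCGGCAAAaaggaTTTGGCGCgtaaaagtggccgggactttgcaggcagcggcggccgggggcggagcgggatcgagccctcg
E2F2 promoter, chr1:23531184-23531483, minus strand: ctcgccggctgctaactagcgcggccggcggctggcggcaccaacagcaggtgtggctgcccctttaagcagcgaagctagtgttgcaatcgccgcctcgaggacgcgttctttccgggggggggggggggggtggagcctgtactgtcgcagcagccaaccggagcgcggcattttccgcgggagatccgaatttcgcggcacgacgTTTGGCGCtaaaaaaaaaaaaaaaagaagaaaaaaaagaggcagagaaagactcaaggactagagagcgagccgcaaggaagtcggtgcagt
RBL1 promoter, chr20:37095948-37096247, minus strand: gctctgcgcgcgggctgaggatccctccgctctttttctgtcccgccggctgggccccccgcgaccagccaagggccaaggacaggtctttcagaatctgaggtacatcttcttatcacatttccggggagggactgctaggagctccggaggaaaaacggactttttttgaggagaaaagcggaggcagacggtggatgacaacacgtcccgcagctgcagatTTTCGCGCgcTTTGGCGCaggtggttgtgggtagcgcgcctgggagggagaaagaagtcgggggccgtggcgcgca
E2F7 promoter, chr12:77065520-77065819, minus strand: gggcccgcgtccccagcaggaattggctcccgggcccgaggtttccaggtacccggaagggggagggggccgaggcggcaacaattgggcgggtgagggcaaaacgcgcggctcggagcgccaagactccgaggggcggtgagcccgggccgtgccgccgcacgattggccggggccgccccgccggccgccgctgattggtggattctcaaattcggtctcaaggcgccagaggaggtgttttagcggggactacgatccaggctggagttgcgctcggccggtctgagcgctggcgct
The window of E2F2 holds 1 match, TTTGGCGC at 42 to 35 bases before the start. RBL1 holds 2, TTTCGCGC at 26 to 19 bases and TTTGGCGC at 16 to 9 bases before the start, which do not overlap. E2F1 holds TTTGCCGC on the opposite strand at 33 to 26 bases and TTTGGCGC at 20 to 13 bases before the start. The window of E2F7 holds none of these letters.

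Of the 10 genes, 8 had a promoter in the table, with 9 windows in all because E2F3 has 2, and 4 of the 9 held a match. The fourth was the first start of E2F3, with TTTCCCGC on the opposite strand at 53 to 46 bases before the start. The windows of E2F4 and E2F6 and the second start of E2F3, 1735 bases into the gene, held none. The RB1 window in the table belongs to a start 172699 bases inside the gene, not to its 5′ end, and also held none. Among all 35116 promoters of the same length, 1164 or 3.31% held a match. For comparison, 27 of 66 windows (40.9%) of a list of replication genes taken as E2F targets held one, and 4 of 33 (12.1%) of a list of G2 and mitosis genes. These matches describe letters and not bound sites.

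The activator E2F2 and the repressor E2F7 fell with ST045849 at both times, and so did the pocket protein gene RBL1, although its call at 12 hours was lost in most repeats that left out 1 array. E2F6 fell at 12 hours, a call lost in 4 of the 6 repeats that left out 1 array and under several other settings. Among the 9 tested genes, 4 were lower and 0 higher at 12 hours by limma with adjusted p under 0.05, where 5.28% of all 10345 genes were lower and 5.73% higher. The count of 4 was 2 without ST045849 replicate 1, vehicle replicate 2 or vehicle replicate 3. At 24 hours 3 were lower and 0 higher, where 10.7% of all genes were lower and 13.6% higher. The median log2 change of the 9 genes was -0.29 at 12 hours and -0.31 at 24 hours, beside 0.00 and 0.03 over all genes tested. With siOGT 0 of the 9 were called at either time.

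**Figure D1:**
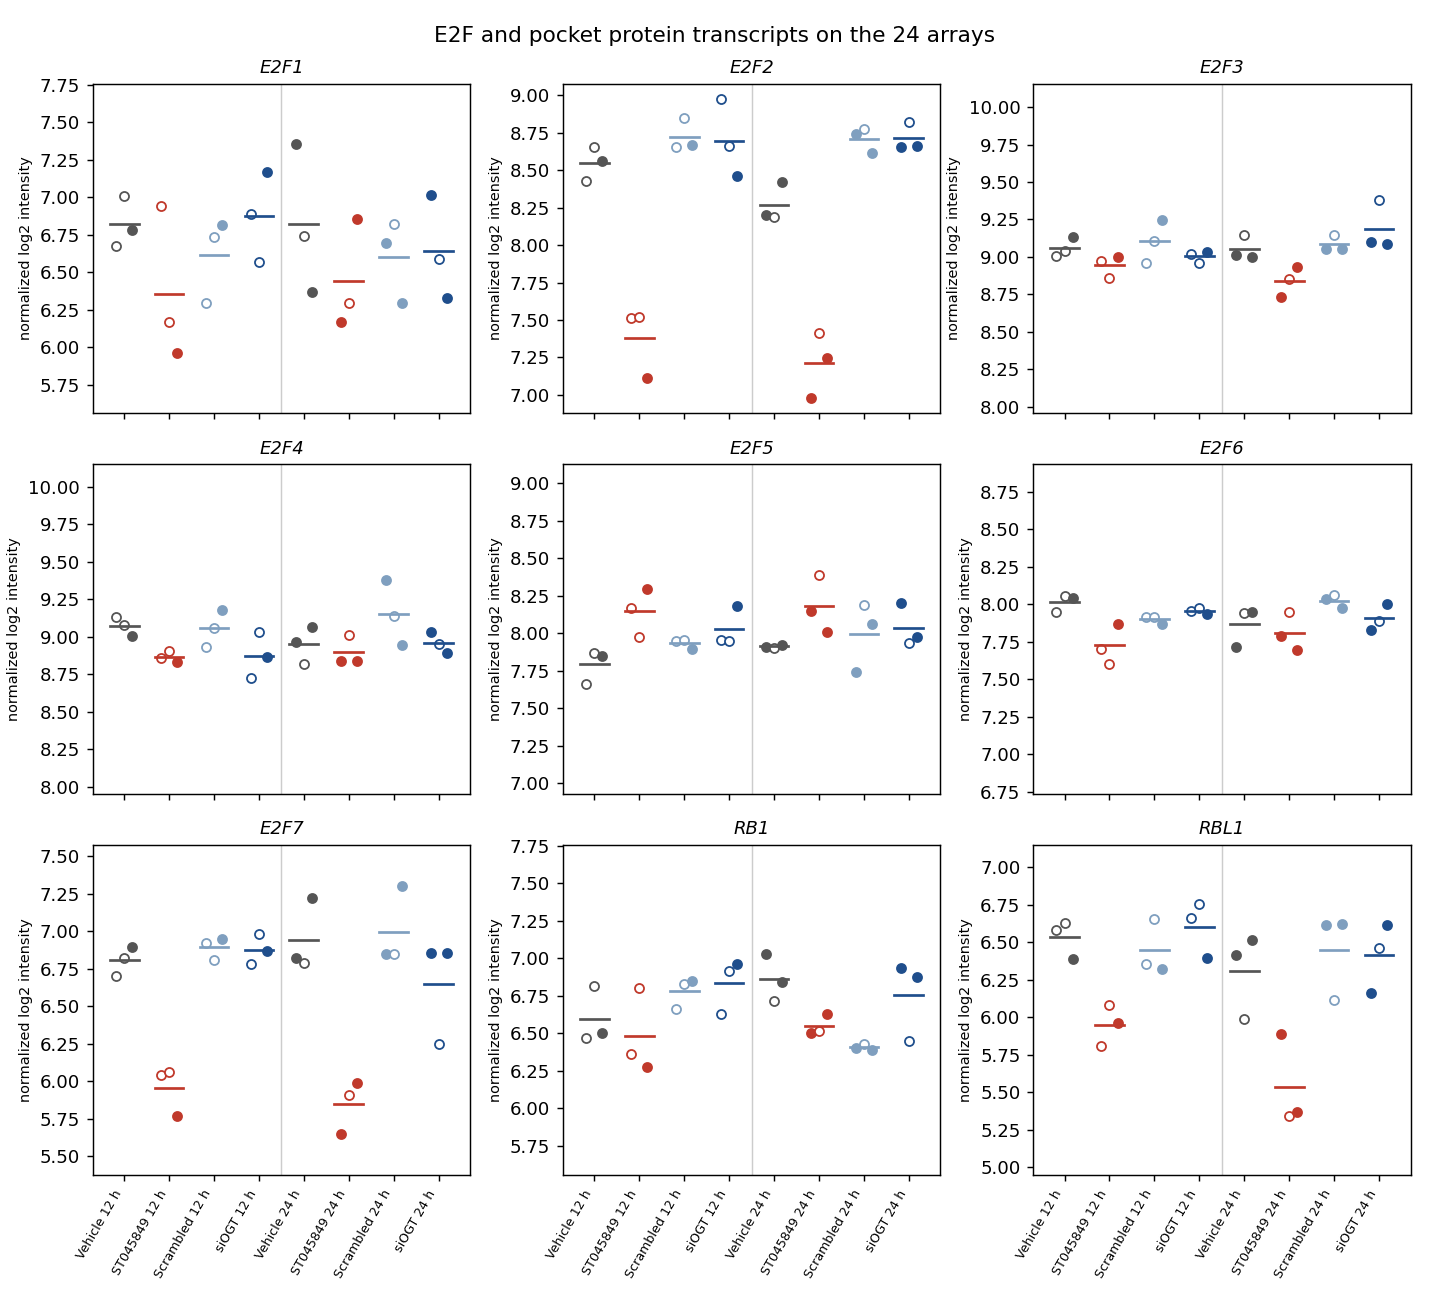
Normalized log2 intensity (y axis, spanning the same range of 2.2 units in each panel) of the 9 tested genes in the 8 groups (x axis). Points are single arrays, filled for array set A and open for set B, and bars are group means; the ST045849 arrays of E2F2 and E2F7 lie below all arrays of the other groups.

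Of the activators, E2F2 changed most. At 12 hours E2F2 stood at 8.43, 8.65 and 8.56 with vehicle and at 7.51, 7.52 and 7.12 with ST045849, all on the log2 scale in order of replicate number. The groups did not overlap, and the change was -1.16 ± 0.13 (SE, n = 3; limma adjusted p = 1.28e-05), which left 44.6% of the vehicle level. At 24 hours the vehicle arrays stood at 8.20, 8.19 and 8.42 and the ST045849 arrays at 6.98, 7.42 and 7.25. Again all ST045849 arrays were lower, by -1.06 ± 0.13 (adjusted p = 1.71e-05), which left 48.1%. By size, the fall of E2F2 had rank 7 of 10345 genes at 12 hours and rank 106 at 24 hours. Without background correction the fall of E2F2 at 24 hours was smaller, -0.69 (adjusted p = 4.22e-06). The size at 12 hours also depended on the processing. It ran from -1.235 to -0.80 over 16 alternative settings and was called in 16 of them.

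E2F2 also differed between the array sets within ST045849. Its 3 arrays of set A averaged 7.11 and its 3 arrays of set B 7.48, with no overlap, while in vehicle the sets averaged 8.39 and 8.42. ST045849 minus vehicle was -1.28 in set A and -0.94 in set B, with groups that did not overlap in either. What the sets have to do with the size of this fall was not tested.

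E2F1, the activator best known for also inducing apoptosis genes, varied more between replicates than any other member. It stood at 6.68, 7.01 and 6.78 with vehicle and at 6.94, 6.17 and 5.96 with ST045849 at 12 hours. At 24 hours the values were 7.36, 6.74 and 6.37 with vehicle and 6.17, 6.30 and 6.86 with ST045849. The groups overlapped at both times. The log2 changes of -0.47 ± 0.27 (limma adjusted p = 0.284) and -0.38 ± 0.27 (adjusted p = 0.32) did not pass the test, and their 95% intervals ran from -1.02 to 0.09 and from -0.94 to 0.17. The SD within groups, after limma had moderated it over all genes, was 0.33 for E2F1, against 0.11 to 0.21 for the other 8 genes.

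E2F3, the remaining activator, ranged from 8.73 to 9.38 over the 24 arrays. Its ST045849 arrays lay below all vehicle arrays at both times, by -0.11 ± 0.09 at 12 hours (limma adjusted p = 0.481) and -0.21 ± 0.09 at 24 hours (adjusted p = 0.102). The nearest pair at 12 hours, 9.0057 with vehicle and 9.0024 with ST045849, lay almost level. At 24 hours E2F3 passed when each array was scaled to its median in place of quantile normalization (-0.43, adjusted p = 0.0469), a setting in which the median of all genes moved to -0.14.

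The repressors that work with pocket proteins did not pass the test at either time. E2F4 ranged from 8.72 to 9.38 over the 24 arrays and differed from vehicle by -0.20 ± 0.11 at 12 hours (limma adjusted p = 0.241) and -0.05 ± 0.11 at 24 hours (adjusted p = 0.754). E2F5 was the only tested member with ST045849 arrays above all vehicle arrays. It stood at 7.67, 7.87 and 7.85 with vehicle and 8.17, 7.98 and 8.30 with ST045849 at 12 hours, a difference of 0.35 ± 0.12 (adjusted p = 0.0649). The 24 hour values were 7.91, 7.91 and 7.92 against 8.15, 8.39 and 8.01, a difference of 0.27 ± 0.12 (adjusted p = 0.11). E2F5 passed at 12 hours without background correction (0.25, adjusted p = 0.0486), on the authors' processed values (0.25, adjusted p = 0.0484), with times assigned by array set (0.36, adjusted p = 0.0432) and without ST045849 replicate 2 (0.44, adjusted p = 0.0452). With median scaling the E2F5 difference at 24 hours was 0.06 (adjusted p = 0.842). The mean difference over both times, a comparison added after the data were seen, was 0.31 ± 0.09 (adjusted p = 0.00794).

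Groups that do not overlap were common in these data. At 12 hours 6 of the 9 members had all ST045849 arrays below all vehicle arrays and 1 had them above, where 14.8% of all genes were below and 14% above. At 24 hours 5 members were below and 1 above, against 17.5% and 22.7% of all genes.

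Of the repressors that bind no pocket protein, E2F7 fell most. E2F7 stood at 6.70, 6.82 and 6.90 with vehicle and at 6.04, 6.06 and 5.77 with ST045849 at 12 hours. The 24 hour values were 6.82, 6.79 and 7.22 with vehicle and at 5.65, 5.91 and 5.99 with ST045849. The groups did not overlap at either time. The log2 changes were -0.85 ± 0.16 (SE, n = 3; limma adjusted p = 0.00156) and -1.10 ± 0.16 (adjusted p = 6.4e-05), which left 55.5% and 46.8% of the vehicle level. Without background correction both changes were smaller, at -0.37 (adjusted p = 0.00309) and -0.48 (adjusted p = 9.2e-05).

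E2F6, which works with Polycomb-type complexes, fell at 12 hours and not at 24. It stood at 7.95, 8.06 and 8.04 with vehicle and at 7.70, 7.60 and 7.87 with ST045849 at 12 hours, and the groups did not overlap. The change was -0.29 ± 0.09 (limma adjusted p = 0.0392). The call was lost without vehicle replicate 2 (adjusted p = 0.107) or 3 (adjusted p = 0.124), or without ST045849 replicate 1 (adjusted p = 0.086) or 2 (adjusted p = 0.163). It was also lost with median scaling (-0.33, adjusted p = 0.179) and in a model with an array set term for each treatment (-0.28, adjusted p = 0.0549). With no detection filter, with all kept probes tested, with times assigned by array set and with only the 6 compared arrays fitted, the adjusted p was 0.0503, 0.0577, 0.148 and 0.166. At 24 hours E2F6 differed by -0.05 ± 0.09 (adjusted p = 0.696), and the change between the times did not pass the test (0.23 ± 0.12, adjusted p = 0.8).

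E2F8, the closest relative of E2F7, was at the limit of detection. Its raw intensity lay between 103 and 151, and the 2 arrays with a detection p under 0.01 were siOGT 12 hours replicate 1 and siOGT 24 hours replicate 1. On the log2 scale it stood at 5.15, 5.21 and 5.20 with vehicle and 4.60, 4.73 and 4.50 with ST045849 at 12 hours. At 24 hours it stood at 5.45, 4.96 and 5.10 with vehicle and 4.52, 5.15 and 4.52 with ST045849. The groups overlapped at 24 hours and not at 12 hours, and no fold is given because the probe was detected in neither.

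**Figure D2:**
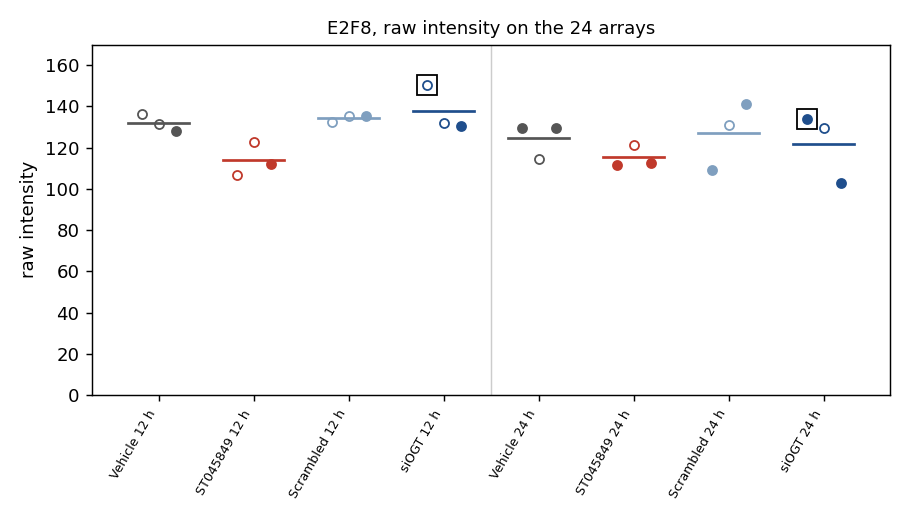
Raw intensity of the E2F8 probe (y axis, linear, from 0) on each array of the 8 groups (x axis), with bars at group means. Filled points are array set A, open points set B, and squares mark the 2 arrays with a detection p under 0.01, both with siOGT.

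Of the pocket protein genes among the members, RBL1 fell and RB1 did not pass the test. RBL2, which is not a member here, rose at both times but not with median scaling, as given below. RBL1 stood at 6.58, 6.63 and 6.39 with vehicle and at 5.81, 6.09 and 5.96 with ST045849 at 12 hours. At 24 hours it stood at 6.42, 5.99 and 6.51 with vehicle and at 5.89, 5.34 and 5.37 with ST045849, where the probe was detected on 1 of the 3 arrays. All ST045849 arrays were below all vehicle arrays at both times, although at 24 hours the nearest pair, 5.99 and 5.89, lay close together. The log2 changes were -0.58 ± 0.17 (limma adjusted p = 0.035) and -0.77 ± 0.17 (adjusted p = 0.00304).

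The 12 hour call of RBL1 was lost without vehicle replicate 1, 2 or 3 or ST045849 replicate 1 or 3, with changes of -0.66 to -0.51 and adjusted p of 0.0603 to 0.107. It was also lost with median scaling (-0.60, adjusted p = 0.0554) and with no detection filter (adjusted p = 0.061). At 24 hours the call held in each repeat that left out 1 array, with changes of -0.95 to -0.67. Without background correction the changes of RBL1 were -0.24 and -0.28 at 12 and 24 hours (adjusted p = 0.0396 and 0.00887).

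RB1 stood at 6.47, 6.82 and 6.50 with vehicle and at 6.36, 6.80 and 6.28 with ST045849 at 12 hours, and the groups overlapped. At 24 hours it stood at 7.03, 6.72 and 6.84 with vehicle and at 6.50, 6.52 and 6.63 with ST045849, without overlap. The log2 changes were -0.11 ± 0.14 (limma adjusted p = 0.667) and -0.31 ± 0.14 (adjusted p = 0.118). With median scaling the change at 24 hours was -0.48 (adjusted p = 0.0457).

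**Figure D3:**
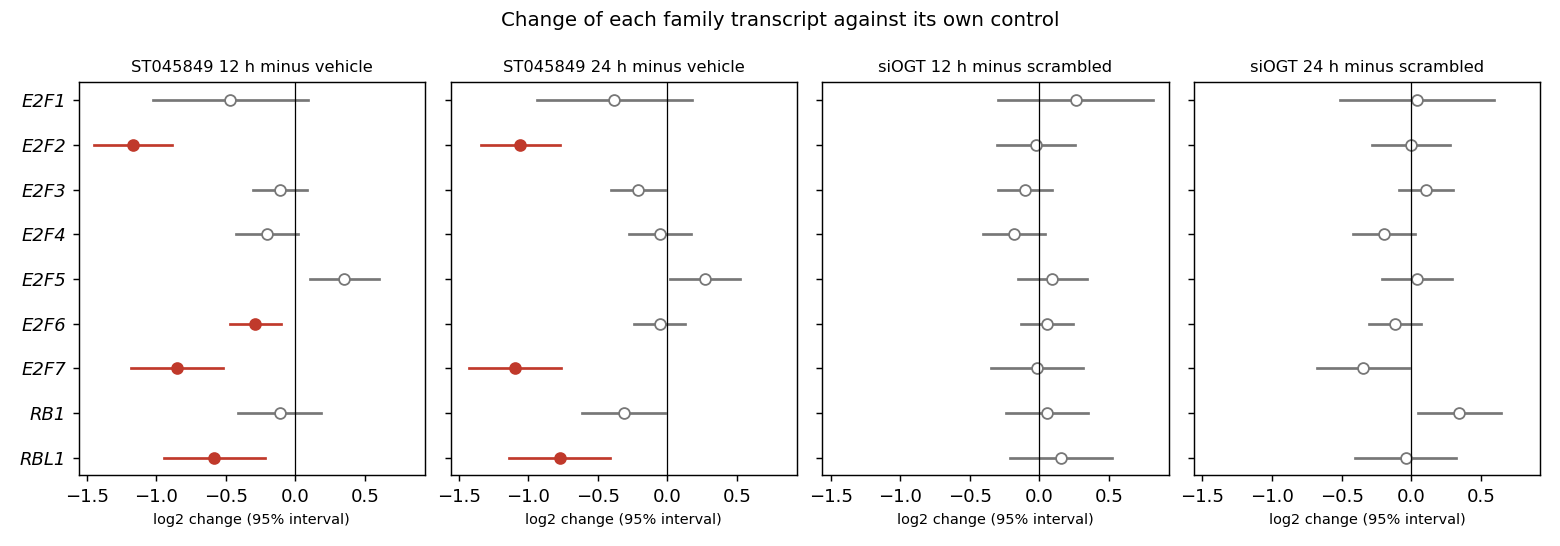
Log2 change of the 9 tested genes (y axis) against vehicle for ST045849 and against the scrambled siRNA for siOGT at each time (x axis, points with 95% intervals). Red filled points passed an adjusted p under 0.05: E2F2, E2F6, E2F7 and RBL1 at 12 hours and E2F2, E2F7 and RBL1 at 24 hours of ST045849, and none with siOGT.

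The array sets were also compared with their own controls, 3 arrays against 3 with both times together. ST045849 minus vehicle was -1.18 for E2F7 in set A and -0.77 in set B, and the groups did not overlap in either. For RBL1 it was -0.70 in set A, without overlap, and -0.66 in set B, where the groups overlapped. For E2F5 it was 0.26 and 0.36, without overlap in either set.

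With the OGT siRNA no member of the family passed the test, while OGT itself fell. By limma 0.00967% of all genes were called at 12 hours and 0.126% at 24 hours, and of the 9 members 0 passed, with 0 and 2 at an unadjusted p under 0.05. E2F2 stood at 8.65, 8.85 and 8.67 with the scrambled siRNA and 8.97, 8.66 and 8.46 with siOGT at 12 hours. The 24 hour values were 8.74, 8.77 and 8.62 against 8.65, 8.82 and 8.66. The groups overlapped, and the 95% intervals of the change ran from -0.31 to 0.26 at 12 hours and from -0.28 to 0.28 at 24 hours. RBL1 changed by 0.16 ± 0.17 and -0.04 ± 0.17 (adjusted p = 1 and 0.955).

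The 2 members at an unadjusted p under 0.05 at 24 hours of siOGT were RB1 and E2F7. RB1 stood at 6.40, 6.43 and 6.39 with the scrambled siRNA and 6.93, 6.45 and 6.87 with siOGT, which did not overlap, and the change was 0.35 ± 0.14 (limma adjusted p = 0.317). E2F7 stood at 6.85, 6.85 and 7.30 against 6.85, 6.25 and 6.85, with a change of -0.35 ± 0.16 (adjusted p = 0.363), and replicate 2 of siOGT was the low array. In this siOGT group replicate 2 also had the highest OGT value, 7.82 against 6.76 and 6.60. The mean change of E2F4 with siOGT over both times, a comparison added after the data were seen, was -0.19 ± 0.08 (adjusted p = 0.288).

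Scrambled against vehicle gave 0 of 9 calls at either time, where 0% of all genes were called at 12 hours and 0.087% at 24 hours, and 0 and 2 members had an unadjusted p under 0.05. At 24 hours E2F2 was 0.44 ± 0.13 higher with the scrambled siRNA than with vehicle (limma adjusted p = 0.197) and RB1 0.46 lower (-0.46 ± 0.14, adjusted p = 0.206), with groups that did not overlap. Set against vehicle, RB1 with siOGT at 24 hours, at 6.75, lay near the vehicle mean of 6.86.

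Inhibitor and knockdown were compared directly by testing the ST045849 change minus the siOGT change. At 12 hours 1 of the 9 members was called, where 0.744% of all genes were called lower: E2F2, with a difference of -1.14 ± 0.19 (limma adjusted p = 0.00221). E2F7 differed by -0.84 ± 0.22 (adjusted p = 0.058). At 24 hours 4 were called, where 6.42% of all genes were called lower: E2F2 by -1.06 ± 0.19 (adjusted p = 0.00137), E2F7 by -0.75 ± 0.22 (adjusted p = 0.0278), RBL1 by -0.74 ± 0.25 (adjusted p = 0.0468) and RB1 by -0.66 ± 0.20 (adjusted p = 0.0307). The RB1 difference adds a change of -0.31 with ST045849 to one of 0.35 with siOGT, neither of which passed alone.

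Of these, E2F2 was called in each repeat that left out 1 array. Over 14 alternative settings at 24 hours E2F2 was called in 14, E2F7 and RB1 in 12 each and RBL1 in 7. Without background correction the 24 hour difference was -0.31 for E2F7 (limma adjusted p = 0.0595) and -0.26 for RBL1 (adjusted p = 0.101). At 24 hours the E2F7 call was lost without ST045849 replicate 1, scrambled replicate 1 or 2, siOGT replicate 1 or 3, or vehicle replicate 3 (adjusted p = 0.066 to 0.0833). The RB1 call was lost without replicate 1 of any of the 4 groups, replicate 2 of ST045849 or scrambled, or replicate 3 of vehicle or siOGT (adjusted p = 0.0522 to 0.0873). The RBL1 call was lost without vehicle replicate 1, replicate 2 of ST045849, siOGT or scrambled, or replicate 3 of vehicle, ST045849 or siOGT (adjusted p = 0.0764 to 0.137).

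No change between the times passed the test. The ST045849 change at 24 hours minus that at 12 hours was called for 0 of 10345 genes by limma, with 669 at an unadjusted p under 0.05 and 0 of the 9 members among these. For E2F2 this difference was 0.11 ± 0.19, for E2F7 -0.25 ± 0.22 and for RBL1 -0.19 ± 0.25. For siOGT it was also called for 0 genes, with 375 at an unadjusted p under 0.05. Within each treatment 24 against 12 hours gave 0 called genes, with 312 to 842 at an unadjusted p under 0.05, and the members among them were RBL1 within ST045849 (-0.42 ± 0.17) and RB1 within scrambled (-0.37 ± 0.14). These comparisons mix time with array set.

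The members' profiles over the 24 arrays were set against those of all other tested genes. The 3 genes most like E2F2 by Pearson correlation were MCM3 (r = 0.972), MCM6 (r = 0.953), both subunits of the replicative helicase, and UHRF1 (r = 0.952), a reader of hemimethylated DNA. Those most like E2F7 were CHEK1 (r = 0.945), the DNA damage checkpoint kinase, LRR1 (r = 0.937) and KBTBD8 (r = 0.932). RBL1 was nearest to CSPG5 (r = 0.888), CDC25A (r = 0.858) and MAGEA1 (r = 0.847), and E2F6 to ABCA11P (r = 0.789), AUP1 (r = 0.782) and NUP62 (r = 0.734). These arrays share treatments, so that the correlations carry the difference between ST045849 and the other groups. After group means were taken off, the values for E2F2 were 0.756, 0.729 and 0.638, in the same order of genes. Those for E2F7 were 0.714, 0.583 and 0.493, those for RBL1 0.651, 0.368 and 0.331, and those for E2F6 0.729, 0.540 and 0.492. Each group holds arrays of both sets, so that these values can still carry a difference between the sets. Among the members, E2F2 correlated with E2F7 at 0.855 over the 24 arrays and at 0.118 after group means were taken off.

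Of 10 tested genes for the DP partners, p130 and the MuvB and DREAM complexes, 4 fell and 1 rose at 12 hours, and 4 fell and 1 rose at 24 hours, with a median log2 change of -0.31 at each. Over all genes, 5.28% were lower and 5.73% higher at 12 hours and 10.7% and 13.6% at 24 hours, so that the 1 rise of 10 is near the share of all genes. RBL2, which encodes p130, rose by 0.51 ± 0.11 and 0.52 ± 0.11 (limma adjusted p = 0.00478 and 0.00174). TFDP1, the main dimer partner of E2F proteins, changed by -0.34 ± 0.09 and -0.41 ± 0.09 (adjusted p = 0.0236 and 0.00378). LIN9, a MuvB subunit, fell by 0.71 and 1.20, LIN54, its DNA-binding subunit, by 0.44 and 0.47, LIN52 by 0.43 at 12 hours alone among the calls, and FOXM1, a mitotic transcription factor, by 0.86 at 24 hours. With median scaling the rise of RBL2 did not pass (0.44, adjusted p = 0.0906, and 0.30, adjusted p = 0.151), nor did TFDP1 (-0.41, adjusted p = 0.115) and LIN52 at 12 hours. Without background correction LIN52 did not pass either (adjusted p = 0.0621).

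Of 8 tested cyclins, kinases and their activators, which act upstream of the pocket proteins, 5 fell at 12 hours and 6 at 24 hours, and 0 rose, with medians of -0.46 and -0.58, where 5.28% and 10.7% of all genes were lower. CDC25A, a phosphatase that activates CDK2, changed by -1.29 ± 0.13 and -1.56 ± 0.13 (limma adjusted p = 2.6e-06 and 1.08e-07). CCNE1, which encodes cyclin E1, changed by -0.91 ± 0.13 and -0.78 ± 0.13, and CDK2 by -0.69 ± 0.18 and -0.97 ± 0.18. CCND3 and SKP2 also fell at both times, with the 12 hour call of SKP2 lost under median scaling, and CKS1B at 24 hours alone among the calls. CDK4 (-0.28, adjusted p = 0.118, and -0.15, adjusted p = 0.352) and CCND1 (-0.27, adjusted p = 0.0651, and -0.21, adjusted p = 0.116) did not pass. CCND1 did pass at 12 hours without background correction (-0.265, adjusted p = 0.0269) and on the authors' processed values (-0.265, adjusted p = 0.0272). At 24 hours it passed with median scaling (-0.43, adjusted p = 0.022). Of 4 tested CDK inhibitors 1 rose at each time, CDKN1B, which encodes p27 (0.35 and 0.38, adjusted p = 0.0314 and 0.00935). Of all genes 5.73% and 13.6% were higher, and 1 of 4 describes that gene rather than the list. With median scaling CDKN1B did not pass (0.29, adjusted p = 0.287, and 0.17, adjusted p = 0.442), and a second CDKN1B probe did not pass either (0.45, adjusted p = 0.135, and 0.17, adjusted p = 0.558).

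Of 10 tested corepressors of RB and E2F6, 1 fell at 12 hours and 4 at 24 hours, where 5.28% and 10.7% of all genes were lower, so that the 12 hour count is near the share of all genes. SUV39H1, a histone H3 lysine methyltransferase, changed by -0.82 ± 0.14 and -0.77 ± 0.14 (limma adjusted p = 0.000654 and 0.000528). At 24 hours RBBP7 (-0.66), PCGF6 (-0.43), a subunit of the E2F6 complex, and HDAC2 (-0.22) fell as well. At 24 hours another PCGF6 probe passed (-0.50, adjusted p = 0.0342) and a further one did not (-0.47, adjusted p = 0.148). The list's medians were -0.21 and -0.15.

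The target genes of the family fell in large numbers, in lists drawn from general knowledge of E2F and DREAM targets and chosen with results of these data known. Of 51 tested replication targets 41 fell at 12 hours and 46 at 24 hours, and 0 rose, with medians of -0.77 and -1.02, where 5.28% and 10.7% of all genes were lower. DTL, MCM4, MCM2 and MCM10 had the largest called changes at 12 hours (-1.23, -1.19, -1.17 and -1.17), and RRM2, MCM10, ASF1B and DTL at 24 hours (-1.62, -1.61, -1.61 and -1.61). The 12 hour count was 27 without vehicle replicate 3 and 25 without ST045849 replicate 3. These counts use the brightest probe of each gene. Of the 51 genes, 19 had another detected probe, and for 5 of these at 12 hours and 6 at 24 hours another probe gave a different call. UHRF1 changed by -1.16 and -1.49 on the probe used but by -0.55 (adjusted p = 0.102) and -0.44 (adjusted p = 0.138) on the other. The next genes were named after their values were seen. ORC6 changed by -0.09 and -0.16 on the probe used but by -1.07 (adjusted p = 0.000143) and -1.52 (adjusted p = 1.53e-06) on the other. DUT, the dUTPase gene, had opposite calls at 24 hours, with -0.40 (adjusted p = 0.0223) on the probe used, 0.43 (adjusted p = 0.0348) on another and -0.47 (adjusted p = 0.0207) on a further one.

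The G2 and mitosis targets of the DREAM complex gave 4 falls of 31 at 12 hours and 27 at 24 hours, with medians of -0.53 and -0.98. Of all genes, 5.28% were lower at 12 hours and 10.7% at 24 hours. AURKB, BIRC5, CDK1 and ANLN were the 4 at 12 hours (-0.93, -0.88, -0.82 and -0.82). Another BIRC5 probe did not pass at 12 hours (-0.50, adjusted p = 0.118). Of the 31 genes, 12 had another detected probe, with a different call for 2 at 12 hours and 3 at 24 hours. KIF23, CDK1, CCNA2 and AURKB, all needed for mitosis or entry into it, had the largest called changes at 24 hours (-1.57, -1.46, -1.36 and -1.35). The count at 12 hours depended on the model: it was 28 with the array set and its effect in each treatment, 7 without background correction, 2 in a fit of the compared groups alone, and 0 without vehicle replicate 3 or without ST045849 replicate 3. At 24 hours it was 17 without ST045849 replicate 1 and 16 without ST045849 replicate 3. The difference between the times was called for 0 of the 31.

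Of 5 tested apoptosis genes known as E2F1 targets, 1 rose at each time, PMAIP1, which encodes NOXA (0.74 ± 0.18 and 0.65 ± 0.18, limma adjusted p = 0.0116 and 0.012). Of all genes 5.73% and 13.6% were higher, so that 1 of 5 describes that gene rather than the list. With median scaling PMAIP1 did not pass at 24 hours (0.45, adjusted p = 0.102). With siOGT 0 genes of any of these 7 lists were called at either time, and the list medians lay between -0.30 and 0.05.

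The inhibitor and knockdown changes were also compared over these lists. At 12 hours 18 of the 51 replication targets and 1 of the 8 cyclins and kinases were called lower with ST045849, and 0 genes of the lists were called higher, where 0.744% of all genes were lower and 1.26% higher. At 24 hours 38 of the 51 replication targets, 8 of the 31 G2 and mitosis targets, 3 of the 8 cyclins and kinases, 3 of the 10 partners and 1 of the 10 corepressors were lower, against 6.42% of all genes. In the other direction, 3 of the 5 apoptosis genes (median 0.56), 2 of the 4 CDK inhibitors (median 0.41) and 1 of the 10 partners were higher at 24 hours, against 9.65% of all genes. The apoptosis genes were PMAIP1 (0.95 ± 0.25, limma adjusted p = 0.0162), BBC3, which encodes PUMA (0.87 ± 0.24, adjusted p = 0.0178), and CDKN2A (0.56 ± 0.16, adjusted p = 0.0241). CDKN2A stands in both lists, and the other CDK inhibitor was CDKN1B (0.54 ± 0.14, adjusted p = 0.0151). On the probe used, CDKN2A changed by 0.24 with ST045849 and by -0.32 with siOGT at 24 hours. Another CDKN2A probe went the other way, by -0.19 (adjusted p = 0.443) and 0.12 (adjusted p = 0.818). Another CDKN1B probe changed by 0.17 and -0.02, against 0.38 and -0.16 on the probe used. For BBC3 the ST045849 change of 0.29 (adjusted p = 0.232) and the siOGT change of -0.58 (adjusted p = 0.159) did not pass alone. With median scaling none of these 4 genes passed, with PMAIP1 at 0.59 (adjusted p = 0.132), BBC3 at 0.54 (adjusted p = 0.128), CDKN2A at 0.27 (adjusted p = 0.339) and CDKN1B at 0.19 (adjusted p = 0.559).

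**Figure D4:**
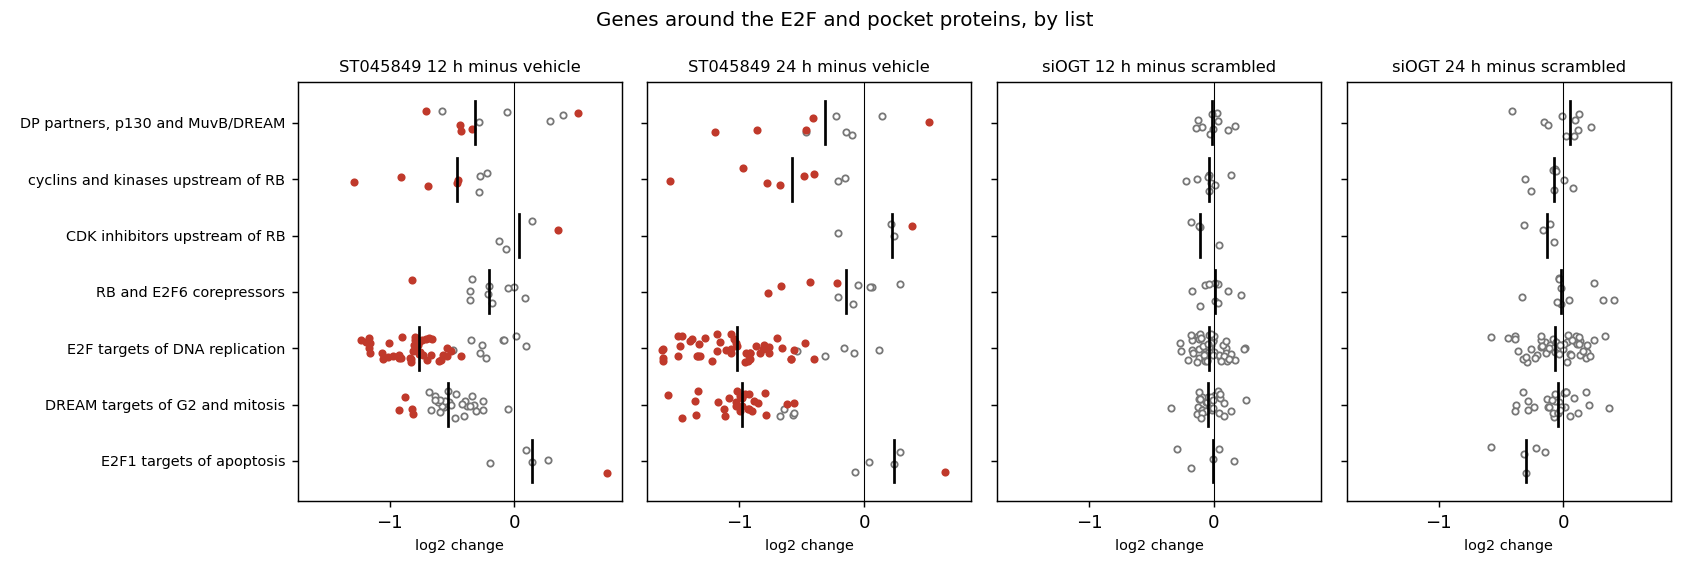
Log2 change (x axis) of each tested gene of the 7 lists (rows) at each time, for ST045849 relative to vehicle and siOGT relative to the scrambled siRNA, with black bars at list medians. Red points passed an adjusted p under 0.05; 41 of 51 replication targets at 12 hours and 46 at 24 hours of ST045849 did so, and none with siOGT.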

How the data were processed

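The deposited values were 1 raw intensity per probe and array, not normalized, and, per the file headers, a detection p-value for each. The authors' processed intensity, deposited as another table, with array medians of 116, served as an alternative. The submitters' processing notes name GenomeStudio 2011.1, and the sources used here do not give its role.

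Intensities were background-corrected from the detection p-values, quantile normalized and put on the log2 scale with neqc (offset 16) in limma 3.58.1 (R 4.3.3). Of 47323 probes 17633 had a detection p under 0.01 on at least 3 arrays. The platform annotation gave 1 symbol for 30113 probes, several for 8 and none for 17202. The brightest detected probe stood for each of 10345 genes. The 8 group means were fitted with limma, and p-values were Benjamini-Hochberg adjusted over all genes in each comparison, with a threshold of 0.05. With 3 against 3 arrays an exact permutation test cannot go below 0.1, so none was used. p-values measure the spread between these arrays. Error values are SE from the fit.

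The 10 members and the 7 gene lists were chosen with earlier results of these data known. All members are described. Any gene of a list of at most 15 may be named, of longer lists the 4 called genes of largest change in a comparison, and for each called member the 3 genes of highest correlation. Array sets were read from the largest gap on the first principal component of the vehicle arrays. Promoters came from the RefSeq table for GRCh38.p14. The fit was tested on simulated data. Figures were drawn with matplotlib 3.10.9 in Python 3.11.15.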

Additional observations from a re-analysis of the deposited data

How the results depend on the processing

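No log2 change of a member turned its call to the opposite direction under any alternative. Among the members, ST045849 at 12 hours gave 4 calls, and 2 with median scaling, with no detection filter or with a fold threshold of 1.5. Leaving out 1 array gave 2 to 4. The E2F6 call was also lost with all kept probes, with the array set by treatment and with the compared groups alone. E2F5 was called in addition, as higher, without background correction and on the authors' processed values. With times assigned by array set E2F5 was called and E2F6 was not. ST045849 at 24 hours gave 3 calls, 5 with median scaling and 5 as a mean over both times, a comparison chosen after seeing the data; leaving out 1 array gave 3 to 3. ST045849 minus siOGT gave 1 call at 12 hours, and 2 with detection on 12 arrays, the replicate block, array weights, the array set as a block, the array set by treatment, and the replicate block within time (chosen after seeing the data); leaving out 1 array gave 1 to 1. At 24 hours it gave 4, and 2 without background correction, on the authors' processed values or with no detection filter. Leaving out 1 array there gave 1 to 4. The RBL1 call in this comparison was also lost with detection on 1 array, all kept probes, the replicate block or times assigned by array set. The RB1 call was also lost with the array set by treatment, and with median scaling E2F3 was called in addition, as lower. The counts for siOGT and for scrambled against vehicle were 0 throughout.

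Replicate numbers did not pair the arrays in every comparison. After group means were taken off, same-numbered arrays correlated at -0.0701 to 0.274 over 12 pairs, and 5 of the 12 were highest with their own number. At 24 hours of siOGT each replicate was highest with its own number (0.115, 0.242 and 0.0966, against 0.0309, -0.109 and 0.0309 with other numbers). The array sets also follow replicate number within each time. With the replicate block 1314 genes were called at 12 hours and 2702 at 24 hours of ST045849, against 1139 and 2516 without it.

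Median scaling moved the median of all genes to -0.14 at 24 hours of ST045849 and to 0.10 at 24 hours of siOGT. It called 472 genes at 12 hours of ST045849, of which 55.7% were lower against 47.9%, and 1901 at 24 hours, of which 81% were lower against 44.1%. At 12 hours of ST045849 the count was 452 with the compared groups alone, 1765 with the array set by treatment and 431 with the fold threshold, which gave 971 at 24 hours. For siOGT at 24 hours 13 genes were called, and 124 when times were assigned by array set, 8 with the array set by treatment, 6 with the fold threshold, 6 with the replicate block within time, 5 over all kept probes, 2 with median scaling and 0 with the compared groups alone. For siOGT at 12 hours it was 1, and 6 with the array set by treatment and 0 with the compared groups alone. Signal limits E2F8, detected on 2 of 24 arrays, and RBL1 at 24 hours of ST045849, detected on 1 of 3. The cause of these shifts was not tested.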
